A study of Mus musculus with 8 samples.

Results

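The genes described here are 36 markers of macrophages and dendritic cells, the phagocytes of the intestinal wall, read on arrays of mouse ileum. They were taken by symbol from the platform annotation, and 34 of the 36 were found among the 19505 named genes of the array, each with 1 probe set. Cd68 and Clec7a were not matched and are not analysed here. By their textbook role, 16 of the measured genes were put with macrophages, 6 with dendritic cells and 12 with both kinds of cell. The samples came from male KKAy mice, an obese and diabetic strain that carries the yellow agouti allele. An age of 14 weeks and a weight of 30 g are given for them. Whether these hold for the start of the study or for sampling is not stated here. High-fat food, with 45% of the energy from fat, was given for 4 weeks before dosing, to both groups. The 4 treated mice received voglibose at 1 mg/kg by daily gavage for 8 weeks, and the 4 control mice received the same volume of water. Voglibose inhibits the enzymes of the gut lining that release glucose from starch and sucrose, and each mouse gave 1 array from about 4 cm of ileum. Because a piece of the whole wall was measured, fewer cells of a type and less RNA per cell cannot be told apart.

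Macrophages of the gut lie below the epithelium and in the muscle layer, take up bacteria and dying cells, and are mostly replaced from blood monocytes. Their survival depends on the growth factor receptor Csf1r, and they sense debris, antibody and sugar chains through scavenger, Fc and lectin receptors. Dendritic cells carry antigen to lymph nodes, depend on the receptor Flt3, and include a cross-presenting subset marked by Xcr1, Clec9a and the transcription factor Batf3. Many receptors of these cells signal through the ITAM adaptors Tyrobp and Fcer1g, which recruit the kinase Syk.

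Signals are log2 values per probe set, with array medians between 5.89 and 5.94 and lower quartiles between 4.05 and 4.18. Epithelial genes were bright in every mouse, but the genes of the distal ileum varied widely. Fabp6, the bile acid binding protein of the ileum, had 8.51, 17.50, 14.11 and 4.01 in water mice 1 to 4 and 8.14, 3.54, 10.78 and 11.68 in voglibose mice 1 to 4, so that it lay at or below the lower quartile in water mouse 4 and voglibose mouse 2. Voglibose mouse 2 also held pancreatic transcripts, with Cpa1 at 12.01 against 4.72 to 5.37 in the other 7 mice. Water mouse 2 had the highest mean of the distal genes and the lowest mean of 8 genes expressed by all leukocytes. Counts are therefore also given without these mice. With 8 arrays, the median SE of a difference between the groups was 0.18 on the log2 scale.

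Of the 16 macrophage genes, 14 were lower in voglibose than in water mice, whereas 4 of 6 dendritic cell genes were higher. Among the genes of both kinds of cell, 8 of 12 were lower. Over all 34 genes, 24 were lower and 10 higher, with a median difference of -0.175 (voglibose minus water, log2), where 50.9% of all 22206 probe sets were lower and their median difference was -0.005. None of the 34 differences passed the test over the whole array. The adjusted p ran from 0.652 to 0.984 (limma, Benjamini-Hochberg), and no probe set of the array passed either, with limma or with a linear model without moderation. An unadjusted p under 0.05 was found for 2 of the 34 genes with either model, Clec4n and Mrc1, where 7.52% of all probe sets (1671) had such a p. Both genes were lower, as were 4.44% of all probe sets at that p, and 0 were higher, against 3.08% of all probe sets. A count of 2 in 34 is near that background. The water and voglibose values did not overlap in 0 of the 34 genes, against 4.35% of all probe sets, of which 2.53% lay lower and 1.82% higher with voglibose.

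The number of lower genes was 25 without water mouse 2, 24 without water mouse 4 and 25 without voglibose mouse 2. Without both water mouse 4 and voglibose mouse 2 it was also 25. It reached 27 without water mouse 2 and voglibose mouse 2, where 6 genes had an unadjusted p under 0.05, a choice made after seeing the data. The smallest count, 20, came without water mouse 3. The median difference of the 34 genes was -0.0858 without voglibose mouse 4 and -0.25 without voglibose mouse 2, the extremes with 1 mouse left out, and -0.30 without water mouse 2 and voglibose mouse 2.

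**Figure D1:**
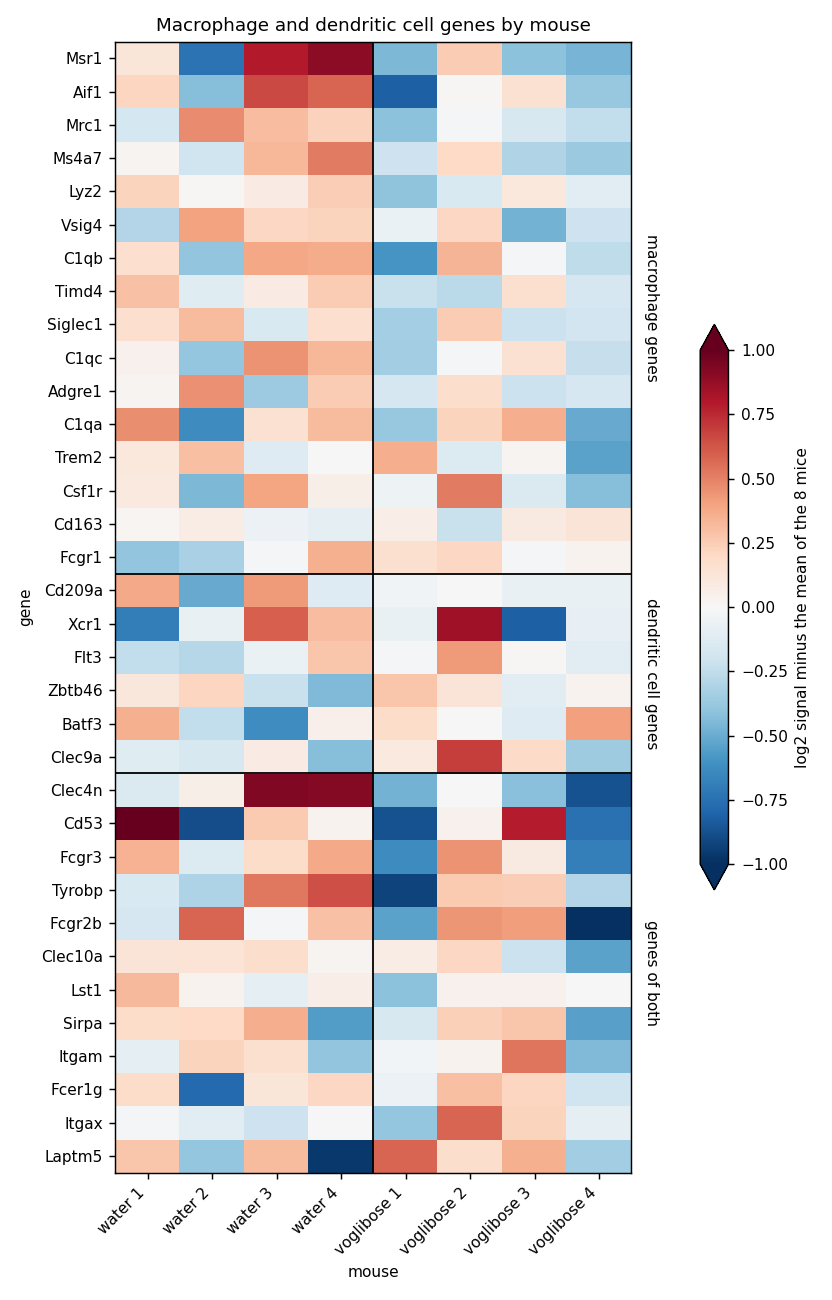
Log2 signal of the 34 measured genes (rows) in the 8 mice (columns), each gene centred on its mean over the mice. Red is above and blue below that mean, with the scale closed at -1 and 1. Within each class genes run from the lowest to the highest difference. Msr1, Aif1, Mrc1, Ms4a7 and Clec4n are red in water mice 3 and 4, and so is the dendritic cell gene Xcr1. No other row for dendritic cells is red in both of these mice.

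PU.1, the protein of the gene Spi1, is a transcription factor that macrophages need and that binds near the start of many of their genes. Promoters are shown for 5 genes: Mrc1 and Aif1, which had large differences among the macrophage genes, C1qb and C1qc, which varied together across mice, and Batf3 for the dendritic cells. The motif GAGGAA, the purine-rich core bound by PU.1, was searched on both strands, where it reads TTCCTC on the other strand. A promoter window here is the 250 bases before a gene's start in RefSeq (GRCm38.p6), written along the gene, and capitals mark the motif. The windows are chr2:14229164-14229413 (+ strand) for Mrc1, chr17:35176053-35176302 (- strand) for Aif1, chr4:136886201-136886450 (- strand) for C1qb, chr4:136892915-136893164 (- strand) for C1qc and chr1:191098164-191098413 (+ strand) for Batf3.
Mrc1: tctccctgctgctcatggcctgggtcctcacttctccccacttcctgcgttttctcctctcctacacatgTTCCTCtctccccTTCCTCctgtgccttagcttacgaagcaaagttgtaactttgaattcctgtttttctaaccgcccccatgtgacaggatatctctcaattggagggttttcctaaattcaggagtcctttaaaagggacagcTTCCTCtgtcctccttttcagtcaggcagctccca
Aif1: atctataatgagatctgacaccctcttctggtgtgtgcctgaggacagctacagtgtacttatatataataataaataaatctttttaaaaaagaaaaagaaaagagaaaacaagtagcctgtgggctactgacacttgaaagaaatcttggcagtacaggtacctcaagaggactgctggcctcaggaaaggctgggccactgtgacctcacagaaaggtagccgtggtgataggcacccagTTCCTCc
C1qb: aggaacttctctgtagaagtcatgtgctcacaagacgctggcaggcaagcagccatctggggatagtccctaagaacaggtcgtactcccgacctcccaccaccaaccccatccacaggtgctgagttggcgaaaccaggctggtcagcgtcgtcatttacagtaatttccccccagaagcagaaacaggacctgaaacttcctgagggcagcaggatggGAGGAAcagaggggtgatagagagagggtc
C1qc: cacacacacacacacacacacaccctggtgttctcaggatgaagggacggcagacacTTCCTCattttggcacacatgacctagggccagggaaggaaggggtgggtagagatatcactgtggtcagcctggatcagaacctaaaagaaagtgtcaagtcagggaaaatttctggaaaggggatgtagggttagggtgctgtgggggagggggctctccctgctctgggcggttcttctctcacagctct
Batf3: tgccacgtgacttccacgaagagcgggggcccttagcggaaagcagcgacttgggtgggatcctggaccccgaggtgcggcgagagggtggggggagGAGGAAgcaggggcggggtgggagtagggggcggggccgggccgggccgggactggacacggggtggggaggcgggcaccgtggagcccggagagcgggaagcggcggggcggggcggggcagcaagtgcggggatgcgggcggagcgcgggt
Mrc1 held 3 matches, the nearest beginning at position -35 (the last base before the gene start is -1), and the other four genes held 1 each. The table had promoters for 24 of the 34 genes, and 12 of these (50%) held the motif against 25.9% of the 27025 genes in the table. By class it was in 7 of 11 macrophage genes, 1 of 6 dendritic cell genes (Batf3) and 4 of 7 genes of both. The 5 genes shown all held the motif, so they do not stand for the 24. A match is a run of letters and not a shown binding site, and the Lyz2, Ms4a7 and Xcr1 windows held none. Any link between the motif and the differences was not tested.

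Among the scavenger and recognition receptors of macrophages, the mannose receptor Mrc1, which takes up glycoproteins and collagen and marks resident macrophages, had the smallest p, and its promoter held the motif 3 times. Its signal was 10.35, 11.00, 10.84 and 10.76 in water mice 1 to 4 and 10.12, 10.51, 10.37 and 10.28 in voglibose mice 1 to 4. The groups overlapped through water mouse 1 alone, which lay among the voglibose mice. The difference was -0.42 ± 0.17 (SE; 95% interval -0.79 to -0.05; unadjusted p = 0.0309, adjusted p = 0.658), and it stayed between -0.55 and -0.33 when any 1 mouse was left out.

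The class A scavenger receptor Msr1, which binds modified lipoproteins and bacterial surfaces, was more variable, at 6.95, 6.09, 7.62 and 7.72 with water and 6.38, 7.08, 6.42 and 6.36 with voglibose. Water mice 3 and 4 were the highest and water mouse 2 the lowest of all 8. Its difference of -0.535 ± 0.33 had a 95% interval from -1.26 to 0.19, and it became -0.87 without water mouse 2 and -0.33 without water mouse 4. Voglibose mouse 2 stood apart from the other 3 treated mice, and it is the mouse with pancreatic transcripts.

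The other receptors of this kind had smaller differences than Mrc1 and Msr1, and all but Timd4 were dim. Timd4, which binds phosphatidylserine on dying cells and marks long-lived macrophages, ran from 6.20 to 6.61 in water and from 6.05 to 6.48 in voglibose mice, a difference of -0.25 ± 0.16. Siglec1, the sialic acid receptor of tissue macrophages, and Vsig4, a complement receptor, differed by -0.25 ± 0.17 and -0.27 ± 0.19. Both lay below the array medians in every mouse, as did the haemoglobin scavenger receptor Cd163 (0.03 ± 0.14, and -0.0003 after a further quantile normalization) and the lipid receptor Trem2 (-0.14 ± 0.20). At such signals background can make up much of the value. Its share was not measured here, so these differences are uncertain.

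The complement genes C1qa, C1qb and C1qc encode the 3 chains of C1q, the protein that opens the classical pathway and is made in tissues mostly by macrophages. C1qa had 8.96, 7.87, 8.65 and 8.81 with water and 8.12, 8.72, 8.86 and 7.99 with voglibose. C1qb had 8.52, 7.96, 8.74 and 8.72 with water and 7.76, 8.69, 8.33 and 8.10 with voglibose. C1qc had 8.23, 7.80, 8.64 and 8.52 with water and 7.84, 8.18, 8.34 and 7.96 with voglibose. In all 3 genes water mouse 2 and voglibose mice 1 and 4 were the lowest of the 8, so the genes varied together but across the groups. The differences were -0.15 ± 0.27, -0.26 ± 0.23 and -0.22 ± 0.20, each within the spread between mice (adjusted p from 0.824 to 0.927). Without water mouse 2 they were -0.38, -0.44 and -0.38.

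The same 3 mice were the lowest in 9 of the 34 genes (26.5%), against 1.91% of all probe sets: the C1q genes, Aif1, Msr1, Fcgr3, Tyrobp, Fcer1g and Cd53. For this count the mice were taken as the 3 lowest for the mean of the pan-leukocyte genes, so that match was set by the choice. The pattern was looked for after the values were seen. No dendritic cell gene showed it. The part of the leukocyte content of each piece in these genes was not tested.

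Aif1, an actin-binding protein of macrophages also known as IBA1, had one of the larger differences. It had 9.47, 8.83, 9.92 and 9.84 with water and 8.44, 9.27, 9.41 and 8.88 with voglibose. Only voglibose mouse 1 lay below all water mice. The difference was -0.52 ± 0.27 (95% interval -1.11 to 0.08; adjusted p = 0.699), with -0.74 without water mouse 2 and -0.33 without voglibose mouse 1. Ms4a7, a membrane protein of mature macrophages, had 9.83, 9.60, 10.13 and 10.32 with water and 9.59, 10.00, 9.50 and 9.43 with voglibose, a difference of -0.34 ± 0.19 (adjusted p = 0.723). Here 3 of the 4 voglibose mice lay below all water mice, and voglibose mouse 2 lay within their range.

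Lyz2, the lysozyme of macrophages and neutrophils, was the brightest of the genes, with 17.09, 16.88, 16.95 and 17.11 with water and 16.46, 16.71, 16.97 and 16.75 with voglibose. Voglibose mouse 3 was the only treated mouse within the water range. Its difference was -0.29 ± 0.15 (95% interval -0.61 to 0.04; adjusted p = 0.696). Lyz1, the near-identical lysozyme gene of Paneth cells, differed by -0.17 ± 0.13 and lay lower in every voglibose mouse (17.94 to 18.10) than in every water mouse (18.16 to 18.30). RNA of such close copies can bind the same probes, so the Lyz2 value is uncertain as a macrophage signal.

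The receptors most widely used to define macrophages differed little. Csf1r, the receptor for the macrophage growth factor, had 9.65, 9.10, 9.95 and 9.61 with water and 9.50, 10.07, 9.41 and 9.13 with voglibose. The ranges of the groups covered each other almost wholly. The difference was -0.05 ± 0.23, with a 95% interval from -0.55 to 0.45, and it turned to 0.0825 without voglibose mouse 4 and to 0.0317 after a further quantile normalization. Adgre1, which encodes the F4/80 antigen, had 7.18, 7.61, 6.79 and 7.41 with water and 6.99, 7.33, 6.94 and 6.99 with voglibose (difference -0.18 ± 0.19). Fcgr1, the high-affinity receptor for IgG and a marker that separates macrophages from dendritic cells, went the other way, at 6.52, 6.59, 6.89 and 7.27 with water and 7.07, 7.12, 6.89 and 6.95 with voglibose. Its difference was 0.19 ± 0.18, and the 4 voglibose mice all fell inside the water range.

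**Figure D2:**
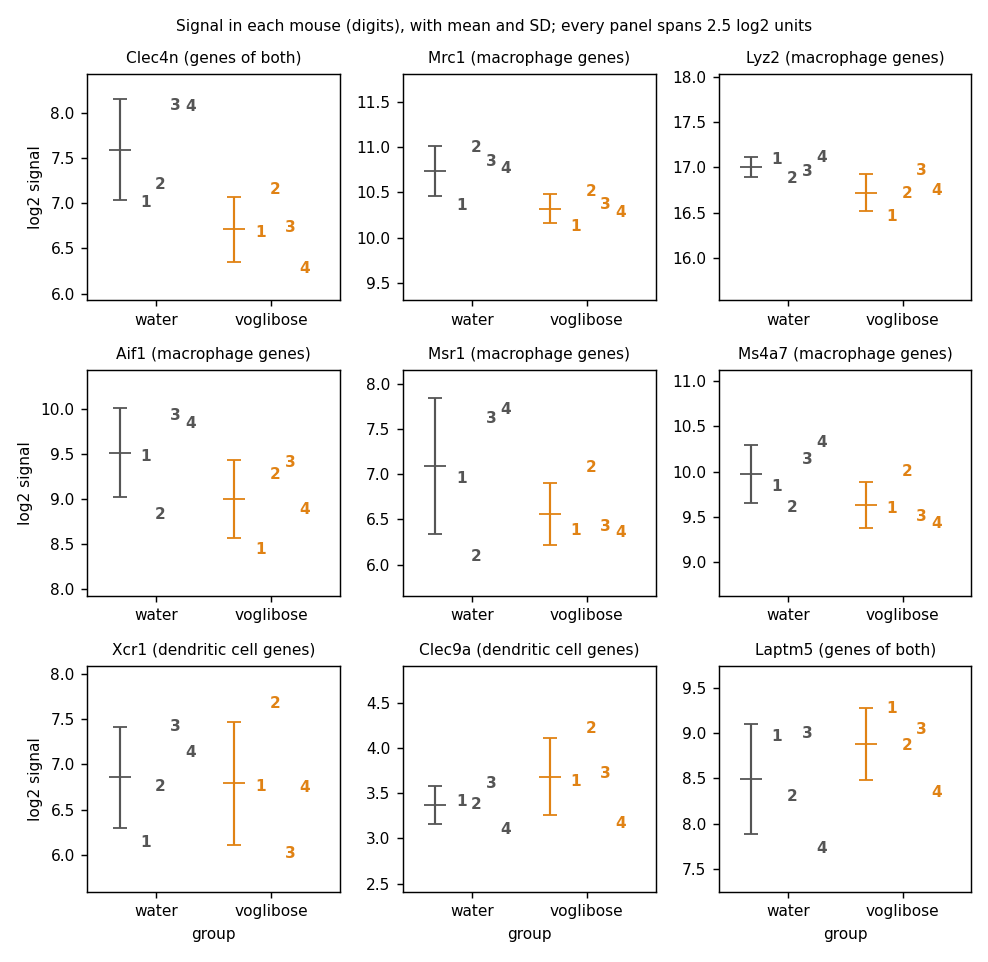
Log2 signal of 9 genes in each mouse, drawn as the number of the mouse within its group, with the mean and SD (n = 4) beside the points. Water mice 3 and 4 stand above all voglibose mice for Clec4n, Aif1, Msr1 and Ms4a7, while the groups overlap broadly for Xcr1 and Laptm5.

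Dendritic cell genes were dim, and 5 of 6 had a mean at or below the median signal of the array. The exception was Xcr1, the chemokine receptor of the cross-presenting subset, at 6.13, 6.75, 7.42 and 7.13 with water and 6.75, 7.67, 6.01 and 6.74 with voglibose. The highest and the lowest mouse were both treated mice. Its difference was -0.065 ± 0.35 with a 95% interval from -0.82 to 0.69, and it ran from -0.36 without voglibose mouse 2 to 0.20 without voglibose mouse 3.

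Clec9a, the receptor by which the same subset detects dead cells, had 3.41, 3.37, 3.61 and 3.10 with water and 3.63, 4.22, 3.72 and 3.17 with voglibose. Voglibose mouse 2 was the only mouse above the lower quartile of its array. The difference of 0.31 ± 0.21 became 0.13 without that mouse. Batf3, the transcription factor this subset needs, differed by 0.23 ± 0.21, with water mice from 4.16 to 5.13 and voglibose mice from 4.65 to 5.19. Flt3, the growth factor receptor of dendritic cells, ran from 3.50 to 4.06 in water and from 3.68 to 4.21 in voglibose mice (difference 0.16 ± 0.18). Zbtb46, a transcription factor of classical dendritic cells, ran from 3.38 to 4.04 and from 3.72 to 4.10 (0.17 ± 0.18). The lectin Cd209a, found on dendritic cells derived from monocytes and on the subset without Xcr1, differed by -0.09 ± 0.20 and had nearly the same value in the 4 voglibose mice, from 5.39 to 5.46. Its 4 water mice ran from 4.96 to 5.89. Adjusted p for the 6 genes lay between 0.774 and 0.984.

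Of the genes that macrophages and dendritic cells share, the C-type lectin Clec4n had the largest difference of all 34. Clec4n encodes dectin-2, which recognises the mannans of fungi and signals through Fcer1g. It had 7.01, 7.21, 8.08 and 8.07 with water and 6.68, 7.15, 6.73 and 6.28 with voglibose. Water mice 3 and 4 stood above all others, and only voglibose mouse 2 reached into the water range. The difference was -0.88 ± 0.27 (95% interval -1.48 to -0.28), a signal 1.84-fold lower in voglibose mice, with an unadjusted p of 0.00792 and an adjusted p of 0.652. By p it ranked 250 among the 22206 probe sets. Leaving out any 1 mouse gave values from -1.08 to -0.72. Clec10a, a galactose-binding lectin, had 7.23, 7.24, 7.28 and 7.13 in water mice, a narrow range, and 7.18, 7.31, 6.89 and 6.57 in voglibose mice (difference -0.23 ± 0.17).

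The Fc receptors and their adaptors did not share a direction. Fcgr3, an activating receptor for IgG, had 10.24, 9.75, 10.07 and 10.27 with water and 9.26, 10.34, 9.98 and 9.21 with voglibose. Voglibose mice 1 and 4 were low and the other two lay with the water mice. Its difference was -0.38 ± 0.25 (adjusted p = 0.764), with -0.60 without voglibose mouse 2. Fcgr2b, the inhibitory receptor for IgG, which B cells carry too, showed the same pair of low mice, at 5.83, 6.81, 6.78 and 5.34 in voglibose mice 1 to 4 against 6.20 to 6.95 in water mice (-0.35 ± 0.32). Without voglibose mouse 4 the difference of Fcgr2b was -0.0667. Tyrobp, the adaptor also called DAP12, had 8.54, 8.39, 9.22 and 9.34 with water and 7.77, 8.96, 8.94 and 8.40 with voglibose (-0.36 ± 0.30, and -0.11 without voglibose mouse 1), whereas Fcer1g, the Fc receptor gamma chain, had 9.09, 8.13, 9.03 and 9.11 and 8.85, 9.21, 9.12 and 8.71 (0.13 ± 0.23). The value of Fcer1g rested on water mouse 2, without which it was -0.10.

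Integrins and general genes of blood cells lay in both directions. The integrin chains Itgam (CD11b) and Itgax (CD11c), adhesion receptors of phagocytes, differed by 0.05 ± 0.22 and 0.16 ± 0.20. Without voglibose mouse 3 the value of Itgam was -0.12. Sirpa, the receptor by which phagocytes read the CD47 signal, differed by -0.09 ± 0.24, and Lst1, a small membrane protein of leukocytes, by -0.17 ± 0.16. Laptm5, a lysosomal protein of leukocytes, had the largest difference upwards, with 8.96, 8.30, 9.0 and 7.72 with water and 9.27, 8.86, 9.04 and 8.34 with voglibose (0.38 ± 0.29, and 0.12 without water mouse 4). Cd53, a tetraspanin of all leukocytes, spread most, from 10.14 to 12.41 in water and from 10.16 to 11.81 in voglibose mice, and its difference of -0.40 ± 0.46 was 0 without water mouse 1. Lymphocytes also express Laptm5 and Cd53.

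**Figure D3:**
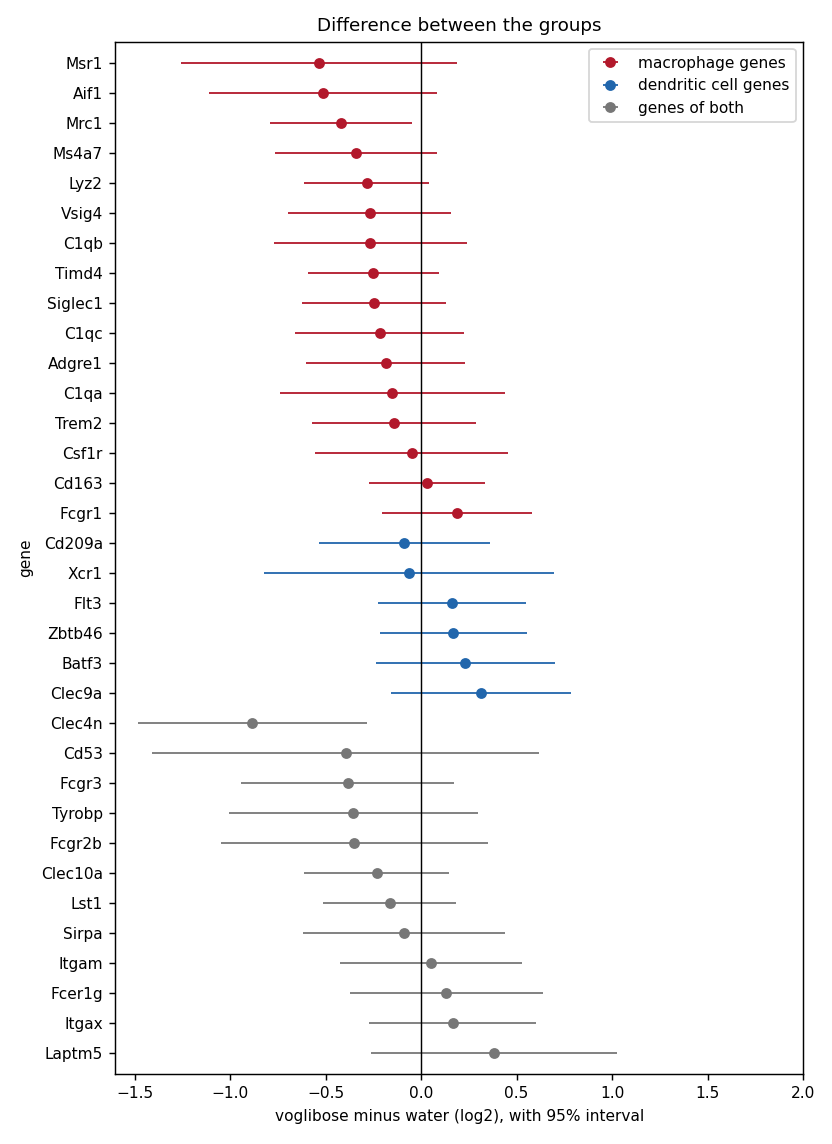
Difference between the groups for each of the 34 genes (voglibose minus water, log2), with the 95% interval from limma, coloured by class. The intervals of Clec4n and Mrc1 leave out 0, and all others include it.

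The comparison of macrophage with dendritic cell genes gave a median difference of -0.25 for the 16 macrophage genes and of 0.16 for the 6 dendritic cell genes, a gap of -0.41 (log2). The 12 genes of both cells had a median of -0.20. With any 1 mouse left out, the macrophage median ran from -0.33 to -0.19. The dendritic cell median ran from 0.0896 (without voglibose mouse 2) to 0.21, and that of the genes of both from -0.27 to -0.065 (without water mouse 1). Mouse by mouse, the mean of the macrophage genes, each centred on its own mean, came to 0.07, -0.10, 0.20 and 0.29 with water and -0.24, 0.10, -0.06 and -0.26 with voglibose. The dendritic cell genes gave -0.04, -0.18, 0.03 and -0.06 with water and 0.07, 0.35, -0.15 and -0.03 with voglibose. For both classes the groups overlapped. The macrophage mean less the dendritic cell mean stood at 0.10, 0.07, 0.16 and 0.36 with water and -0.31, -0.25, 0.09 and -0.23 with voglibose, so 3 of 4 treated mice lay below all water mice and voglibose mouse 3 lay among them. These means describe chosen genes, and no test was made on them.

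Signal level ran with this contrast. Of the 34 genes, 19 of the 23 above the median signal were lower in voglibose mice and 5 of the 11 at or below it. Over the whole array the shares were 57.0% lower above the median signal and 44.9% at or below it, so dim probe sets leaned upwards in general. Among the dim genes, 3 of 4 macrophage genes were lower (median -0.195) and 4 of 5 dendritic cell genes were higher (median 0.17). When probe sets below the lower quartile of signal were left out, which removes Clec9a, Flt3, Zbtb46 and the macrophage gene Vsig4, the dendritic cell median was -0.065 and the gap shrank to -0.18. Whether the class or the brightness of these genes goes with the direction cannot be told apart with 1 bright dendritic cell gene.

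**Figure D4:**
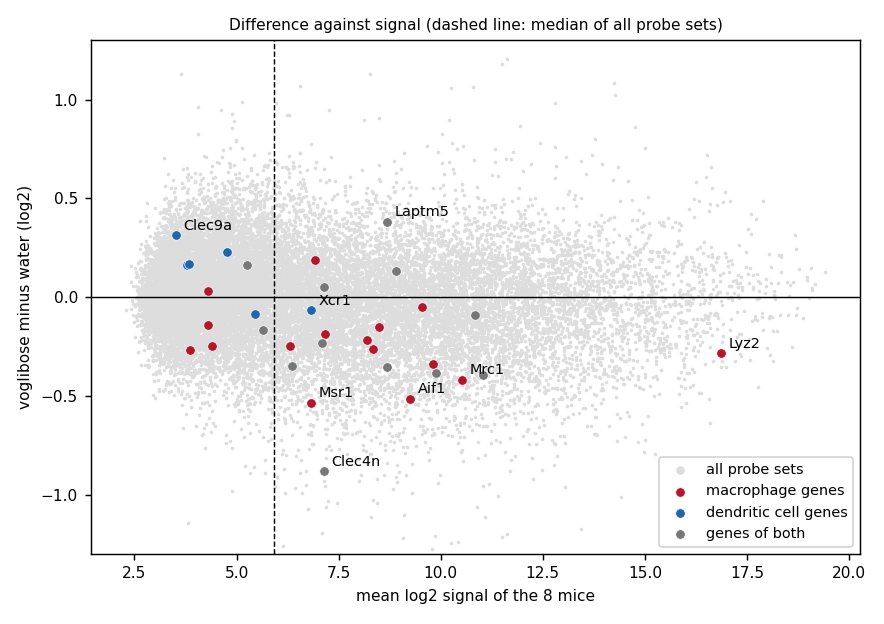
Difference between the groups (voglibose minus water, log2) against the mean log2 signal of the 8 mice, for all probe sets (grey) and for the 34 genes by class. Probe sets with a difference beyond -1.3 or 1.3 are not drawn. Dendritic cell genes sit left of the dashed median line except Xcr1, and macrophage genes lie on both sides of it, mostly below 0.

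Genes upstream and downstream of the markers differed in both directions. Of 10 growth factor and receptor genes, 5 were higher and 5 lower, with 0 at an unadjusted p under 0.05. The macrophage growth factors Csf1 and Il34 differed by 0.07 ± 0.25 and -0.09 ± 0.25, and Flt3l, the ligand of Flt3, by 0.04 ± 0.22. Lineage transcription factors were higher in 7 of 13, again with 0 at that p. Spi1 had a difference of 0.025 ± 0.28. Irf8, which the Xcr1 subset requires, had 0.22 ± 0.14 (adjusted p = 0.759) and was the 1 factor of 13 with no overlap between the groups, which 1.82% of all probe sets showed in that direction. Irf4 of the other subset had 0.30 ± 0.33. Of 11 measured ITAM signalling genes 7 were higher, among them the kinase Syk (0.07 ± 0.32) and the phospholipase Plcg2 (0.27 ± 0.30), while the adaptor Card9 downstream of Clec4n had -0.20 ± 0.16.

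Genes of monocytes and their recruitment had the lowest median of the pathway lists, -0.46, with 8 of 11 lower. At an unadjusted p under 0.05, 4 were lower (Ccr2, Cd14 and the chemokines Ccl8 and Ccl12) and 1 was higher (the chemokine Ccl7), where 4.44% of all probe sets were lower and 3.08% higher at that p. The chemokines were named after their values were seen. The list itself, with Ccr2 and Cd14, was chosen with earlier results of these data known, so its counts beside these shares are a description and not a test. The receptor Ccr2, by which monocytes leave the marrow and enter the gut, had 6.73, 6.87, 7.07 and 7.00 with water and 5.83, 6.33, 5.53 and 6.12 with voglibose. The groups did not overlap, with lower values for voglibose, in 3 of the 11 genes, against 2.53% of all probe sets. Besides Ccr2 these were the lipopolysaccharide co-receptor Cd14 (6.88 to 7.06 in water and 5.69 to 6.48 in voglibose mice) and Ccl8, which had the largest difference of the list (-1.52 ± 0.33). All 3 had an adjusted p of 0.652. Ly6c2, a marker of inflammatory monocytes, differed by -0.02 ± 0.30 (0.0602 after a further quantile normalization), and Cx3cr1, which rises as monocytes become gut macrophages, by -0.30 ± 0.20. Among dendritic cell maturation and plasmacytoid genes, 6 of 12 were lower: Ccr7, which guides dendritic cells to lymph nodes, had 0.32 ± 0.16, Siglech of plasmacytoid cells 0.07 ± 0.22 and the costimulator Cd86 -0.58 ± 0.28. In the list of phagocytosis and lysosome genes 8 of 13 were lower. The receptor kinases Mertk and Axl differed by 0.19 ± 0.41 and -0.34 ± 0.24, and their ligand Gas6 by 0.27 ± 0.21.

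**Figure D5:**
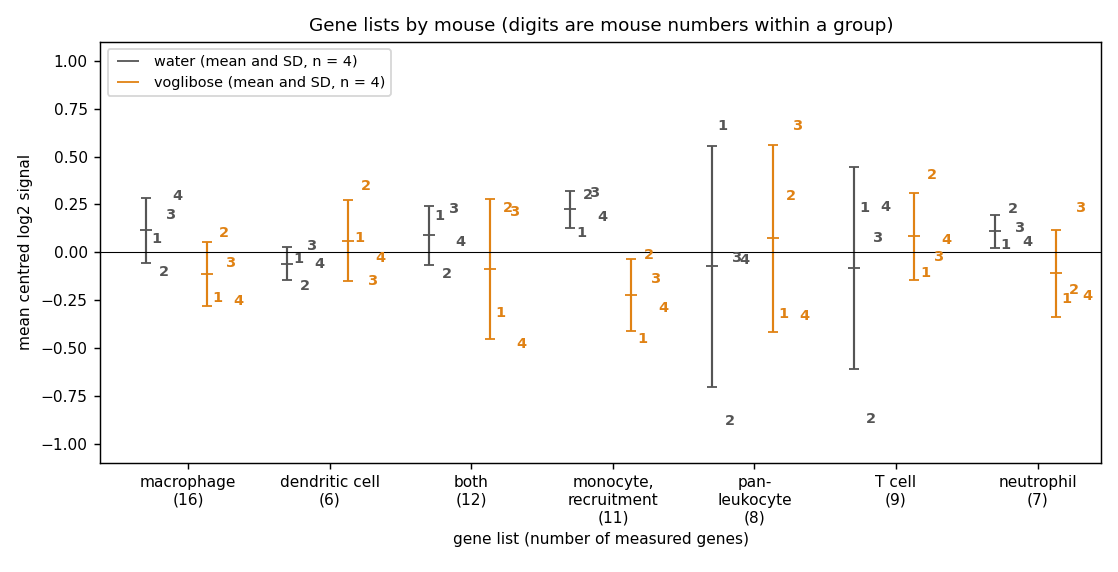
Mean of the centred log2 signals of 7 gene lists in each mouse, drawn as the number of the mouse within its group, with the mean and SD (n = 4) beside the points. Water mouse 2 is lowest for pan-leukocyte and T cell genes. The monocyte list is the only one drawn whose groups do not overlap, and the lists were chosen with earlier results of these data known. The means of the macrophage list run from -0.10 to 0.29 in water and from -0.26 to 0.10 in voglibose mice.

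Markers of lymphocytes lay mostly higher with voglibose and those of neutrophils mostly lower, but the groups overlapped in the mean of each list. Pan-leukocyte genes were higher in 6 of 8, with a median of 0.15, and Ptprc, which encodes CD45, differed by 0.09 ± 0.43 and Coro1a by 0.52 ± 0.31 (0.18 without water mouse 2). Their mean ran from -0.88 (water mouse 2) to 0.66 in water and from -0.34 to 0.66 in voglibose mice, a wider range than that of the macrophage genes. T cell genes were higher in 8 of 9 and B cell genes in 7 of 8, with medians of 0.14 and 0.10. The T cell mean was 0.23, -0.87, 0.07 and 0.23 in water mice 1 to 4 and ran from -0.11 to 0.40 in voglibose mice. Without water mouse 2, the means of the T cell, B cell and pan-leukocyte lists were not higher in voglibose mice. The B cell mean ran from -0.70 to 1.49 in water and from -0.80 to 1.38 in voglibose mice. Neutrophil genes, some of which monocytes share, were lower in 5 of 7 and higher in 2 (median -0.11). S100a8 and S100a9, the first of the list, differed by -0.475 ± 0.17 and -0.58 ± 0.17 (adjusted p = 0.658 and 0.652). Mmp8 and Mmp9 lay below the lower quartile of every array. The mean of the list ran from 0.04 to 0.22 in water and from -0.25 to 0.23 in voglibose mice. The distal ileum genes were lower in 5 of 6 and the Paneth cell genes in 5 of 6. The part of the region of the gut and of these cells in the macrophage values was not tested.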

How the data were processed

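Expression was measured with Affymetrix arrays (250 ng of total RNA each) in 4 voglibose and 4 water mice, grouped by the labels. The deposited values are log2 signals per probe set, made by the authors with RMA, a method that normalizes arrays together, and the Transcriptome Analysis Console, per the submitters' processing notes. The version, the settings and the build: not given in the sources used here. The log2 scale was read from the values. RMA brings arrays to a common distribution, so a change of total RNA would not be seen. With arrays, their number limits the precision.

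All 22206 probe sets were fitted with limma 3.58.1 in R 4.3.3 (lmFit, eBayes; 2-sided, Benjamini-Hochberg, threshold 0.05), and differences carry the moderated SE and a 95% interval. No low-signal filter was used. Of these, 19572 carry 1 gene symbol and 2634 none, and symbols were updated through a RefSeq table where its identifiers allowed. For 55 genes with several probe sets the one with the highest mean was used. The members, classes and lists were chosen with earlier results of these data known, so no test was made over them. Named are the measured members, the first 3 measured genes of each pathway list, Ccr2 and Cd14, the first 2 measured genes of lists of other cells where they bear on a result, and Lyz1 as a near-identical copy. The 3 chemokines were named after their values were seen. On simulated data made from these arrays (22206 probe sets, 10 runs), 11.0% of genes changed 1.5-fold, 57.6% at 2-fold and 93.4% at 4-fold were recovered, with 4.92% false calls. Nothing in the labels gives a batch. Each group has 4 mice, per the labels. Figures were drawn with matplotlib 3.10.9. Alternatives were another normalization, variance models, a low-signal filter, leaving out mice and a replicate block.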

Additional observations from a re-analysis of the deposited data

Results flagged for a closer look

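Among 68 groups of 4 mice (34 genes in each treatment), 4 held a mouse far from the other 3. Chance alone gives about 1 in 20, and the count of 4 is near that share. Voglibose mouse 2, which carried pancreatic transcripts, was high for Adgre1 (7.33, the other treated mice 6.94 to 6.99) and for Msr1 (7.08, the others 6.36 to 6.42). Water mouse 2 was low for Fcer1g, at 8.13 against 9.03 to 9.11 in the other control mice, and it also had the lowest pan-leukocyte mean. Voglibose mouse 1 was low for Lst1, at 5.24 against 5.64 to 5.69. Any link of these values to the pancreatic transcripts or the leukocyte content was not tested.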

How the results depend on the processing

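Over 16 refits, 0 members passed at an adjusted p of 0.05, and 24 of the 34 differences kept their sign (19 lower, 5 higher). Clec4n and Mrc1 stayed lower in each. The number of members with an unadjusted p under 0.05, 2 as reported, was 1 after a further quantile normalization, 6 without water mouse 2 and voglibose mouse 2 (added after seeing the data), and 1 to 5 when 1 mouse was left out: 1 without water mouse 3, water mouse 4 or voglibose mouse 1, 4 without water mouse 2 or voglibose mouse 3, and 5 without voglibose mouse 2. The count of all probe sets at that p, 1671, ran from 969 (without voglibose mouse 1) to 1906. Without probe sets below the lower quartile of signal the dendritic cell median was -0.065 and its gap to the macrophage median -0.18. Same-numbered mice did not deviate together over the whole array (r from -0.32 to 0.015). No pairing by number was seen, though so few correlations cannot exclude one. The fit with the replicate number as a block gave 3 members at that p, 1529 probe sets with unadjusted p under 0.05, and 0 at the adjusted p. No member has several probe sets, so that alternative was not run.

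Signs turned as follows. After a further quantile normalization, Csf1r was 0.0317, Cd163 -0.0003 and Ly6c2 0.0602. Without water mouse 4 and voglibose mouse 2, Itgam was -0.0733, Csf1 -0.29, Spi1 -0.19, Irf4 -0.04, Plcg2 -0.0933 and Siglech -0.0333. Without water mouse 2 and voglibose mouse 2, Flt3 was -0.0233, Itgax -0.01, Fcer1g -0.18, Csf1 -0.0933, Spi1 -0.15, Irf4 -0.14, Mertk -0.43 and Ptprc -0.31. With 1 mouse left out, members ran from -0.23 to 0.0825 (Csf1r), -0.0075 to 0.11 (Cd163), -0.29 to 0.0125 (Trem2), -0.36 to 0.20 (Xcr1), -0.27 to 0.0408 (Cd209a), -0.12 to 0.21 (Itgam), -0.0017 to 0.32 (Itgax), -0.10 to 0.22 (Fcer1g) and -0.29 to 0.075 (Sirpa). The other genes ran from -0.13 to 0.25 (Csf1), -0.24 to 0.075 (Il34), -0.14 to 0.22 (Flt3l), -0.20 to 0.24 (Spi1), -0.15 to 0.34 (Syk), -0.34 to 0.17 (Ly6c2), -0.12 to 0.23 (Siglech), -0.13 to 0.48 (Mertk) and -0.23 to 0.43 (Ptprc). Zbtb46, below the lower quartile of every array, and Clec9a and Flt3, above it in voglibose mouse 2 alone, have signals near background.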
